A study of Homo sapiens with 4 samples.

Results

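The genes described here are 60 genes of mitosis and the spindle, among 60671 genes listed in the expression tables of DDX52-depleted prostate cancer cells. They were chosen by name and function, with no threshold on measured values but with earlier results of these data known, and they cover the switch that starts mitosis, spindle kinases, the spindle checkpoint, the anaphase machinery, the chromosomal passenger complex, kinetochore proteins, kinesin motors, other spindle microtubule proteins, cytokinesis and chromosome condensation genes, the transcription factors FOXM1 and MYBL2, and the proliferation marker MKI67. DDX52 is a DEAD-box RNA helicase, and the study asked what its depletion does to prostate cancer cells. Libraries were made from total RNA with an Illumina TruSeq RNA kit, and expression was deposited as TPM, a transcript abundance that is corrected for gene length and scaled to a fixed total per library.

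4 libraries were sequenced, 1 for each condition. 22RV1 is a castration-resistant prostate carcinoma line, and PC3 is a prostate carcinoma line from a bone metastasis. In each line, the group named shCON carried a control short hairpin RNA and the group named shDDX52 carried a hairpin against DDX52, both delivered by lentivirus in the PLKO.1 vector with puromycin selection. Each line was thus represented by 1 hairpin per target and 1 library per condition, so no value below has a replicate error, and TPM values do not keep the read depth, so that no counting interval could be given. A difference is therefore stated by size alone, without a test.

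Mitosis genes are periodic: most are switched on late in the cell cycle, when the MuvB complex, with MYBL2 and then FOXM1, activates promoters that carry a cell cycle homology region and CCAAT boxes bound by NF-Y. In resting cells the same promoters are held silent by the DREAM complex. CDK1 with its cyclins drives entry into mitosis, the checkpoint holds anaphase until chromosomes are attached, and the anaphase-promoting complex then destroys cyclin B and securin. In bulk RNA, fewer cells in late cell cycle phases and less RNA per such cell cannot be told apart.

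The knockdown was seen in both lines. DDX52 was at 4.88 TPM in the control cells and 1.20 TPM in the knockdown cells of 22RV1, and at 9.20 and 2.07 TPM in those of PC3. MYC was at 169 and 147 TPM in the 22RV1 libraries and at 192 and 122 TPM in the PC3 libraries. KLK2 and KLK3, which mark luminal prostate cells, were at 32.6 and 6.84 TPM in 22RV1 shCON and were listed at 0 in both PC3 libraries. They belong to a list of 7 luminal genes, of which 3 were at 0 in PC3. Others of that list were present in both lines. HOXB13 was at 89.9 TPM in 22RV1 shCON and 39.9 TPM in PC3 shCON, and TMPRSS2 at 4.82 and 2.94 TPM. The summed level of 4 genes of mesenchymal cells (VIM, CAV1, CD44 and AXL) was 25.7 and 13.0 TPM in 22RV1 shCON and shDDX52, and 778.1 and 940.2 TPM in PC3 shCON and shDDX52. CD44 made up most of each sum, at 17.1 and 7.01 TPM in 22RV1 and 571 and 664 TPM in PC3. Within that list, VIM differed little between the control cells, at 8.08 TPM in 22RV1 shCON and 12.6 TPM in PC3 shCON. VIM was at 66.7 TPM in PC3 shDDX52. In PC3 shCON and shDDX52, AXL was at 32.6 and 79.3 TPM and CAV1 at 162 and 130 TPM. The part of these differences between the PC3 libraries in the results on mitosis genes was not tested. Mitochondrially encoded genes took 9.81% and 13.0% of all TPM in 22RV1 shCON and shDDX52, and 8.10% and 10.3% in PC3. Ribosomal RNA genes took 1.21% and 0.0872% in 22RV1, and 0.0923% and 3.13% in PC3. Scaling to nuclear protein-coding genes, used below, leaves both out of the total. No test of their part in the results was run.

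What the mitosis genes share in sequence was read from RefSeq promoter windows (build GRCh38.p14, 250 bases before to 50 bases after the transcription start), matched by gene symbol for 52 of the 60 genes. TTK, BIRC5, UBE2C, RACGAP1, TPX2, AURKA, BUB3 and FOXM1 were not matched. Below are 120 bases for 8 genes, from 110 bases before to 10 bases after the start and read 5′ to 3′ on the gene's strand, with the cell cycle homology region (TTTGAA or TTTAAA, either strand) and the CCAAT box (CCAAT, or ATTGG on the other strand) in capitals. They comprise the classic marker MKI67, the cyclins CCNB1 and CCNB2, the kinase PLK1, the anaphase activator CDC20, the spindle midzone protein PRC1, and SPC25 and UBE2S, which passed 1.5-fold in a line.
MKI67: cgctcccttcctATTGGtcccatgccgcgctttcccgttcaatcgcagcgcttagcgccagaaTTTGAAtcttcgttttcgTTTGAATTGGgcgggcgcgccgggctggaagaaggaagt
CCNB1: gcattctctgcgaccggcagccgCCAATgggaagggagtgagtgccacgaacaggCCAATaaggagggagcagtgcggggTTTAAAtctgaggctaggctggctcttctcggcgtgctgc
CCNB2: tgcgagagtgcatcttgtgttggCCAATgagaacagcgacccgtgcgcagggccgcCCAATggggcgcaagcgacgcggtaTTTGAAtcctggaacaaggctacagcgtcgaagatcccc
PLK1: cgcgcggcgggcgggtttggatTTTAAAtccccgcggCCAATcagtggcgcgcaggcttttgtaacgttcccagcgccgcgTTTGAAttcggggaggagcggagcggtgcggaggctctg
CDC20: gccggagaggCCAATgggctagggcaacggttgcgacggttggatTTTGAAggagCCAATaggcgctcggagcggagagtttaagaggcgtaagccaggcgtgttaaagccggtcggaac
PRC1: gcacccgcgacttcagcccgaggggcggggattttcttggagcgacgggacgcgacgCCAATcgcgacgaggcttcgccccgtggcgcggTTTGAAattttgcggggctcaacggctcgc
SPC25: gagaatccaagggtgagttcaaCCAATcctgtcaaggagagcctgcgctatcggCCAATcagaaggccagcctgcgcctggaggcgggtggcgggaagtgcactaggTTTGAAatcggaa
UBE2S: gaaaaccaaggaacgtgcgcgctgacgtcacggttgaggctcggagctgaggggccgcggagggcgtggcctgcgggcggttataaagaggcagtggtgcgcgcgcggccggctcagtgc

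In this order the windows lie at chr10:128126414-128126533 on the minus strand, chr5:69167040-69167159 on the plus strand, chr15:59105036-59105155 on the plus strand, chr16:23678779-23678898 on the plus strand, chr1:43358871-43358990 on the plus strand, chr15:90994526-90994645 on the minus strand, chr2:168890421-168890540 on the minus strand and chr19:55407779-55407898 on the minus strand. Each promoter spans the start of its own gene's first exon. In MKI67, the homology region and the reverse-strand CCAAT box nearest the start overlap by a base. The UBE2S stretch holds neither element.

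The cell cycle homology region was present in the window of 44 of 52 mitosis genes (84.6%), against 27.9% of the 27305 genes in the promoter table. Among 11286 other genes with at least 1 TPM in any library, a base chosen after values had been seen, the share was 20.2%. Within 60 bases before to 40 bases after the start, 38 of 52 mitosis genes (73.1%) held it, against 9.39% of all genes. The element therefore sat close to the start in most of these promoters, as most of the printed stretches show. In single windows, 20.3% of the 64 windows of mitosis genes had a match in the bin from 30 to 21 bases before the start, against 1.46% of all windows.

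The CCAAT box was present in 39 of 52 mitosis genes (75%), against 39.7% of all genes in the table, and 25% of the windows had one in the bin from 60 to 51 bases before the start, against 3.001% of all windows. The 2 elements thus had their peaks about 30 bases apart, CCAAT upstream. E2F motifs (TTCCCGC, the related TTCGCGC, the related TTGCCGC and the related TTGGCGC, on either strand) were found in 16 of 52 genes (30.8%), against 15.3% of all genes and 24.6% of the other expressed genes. An E-box (CACGTG), the core that MYC with MAX can bind, was found in 6 of 52 (11.5%), against 8.77% of all genes and 12.4% of the other expressed genes. Within 60 bases before to 40 bases after the start it was found in 0 of 52, against 3.86% and 5.61%. A match is a string of letters and not a measured binding site, and MYBL2 and FOXM1 binding was not measured.

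**Figure D1:**
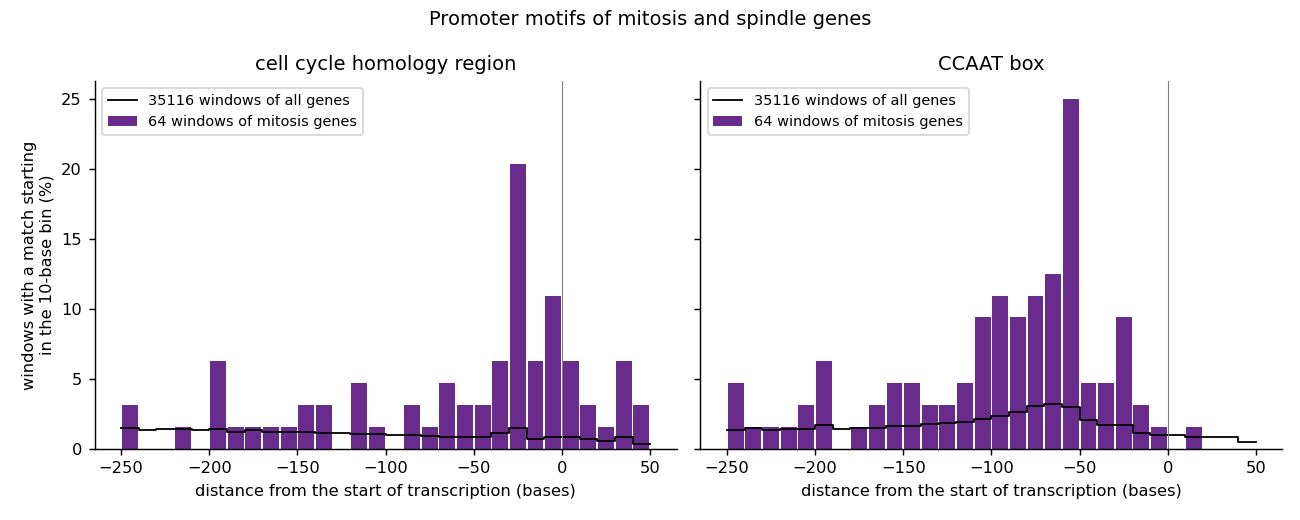
Share of promoter windows (%) with a motif that begins in each 10-base bin, by position relative to the transcription start (bases), for the 64 windows of the mitosis genes (bars) and all 35116 windows of the promoter table (line). The homology region peaks at 30 to 21 bases before the start (20.3% of windows) and the CCAAT box at 60 to 51 bases before it (25%).

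Each of the 60 genes was at 1 TPM or more in at least one library of both lines, so all of them entered every count. Summed over the 60 genes, the control and knockdown cells had 4537 and 4451 TPM in 22RV1 and 4158 and 3909 TPM in PC3, or 0.459%, 0.449%, 0.420% and 0.397% of all TPM. The median gene stood at 30.1, 27.9, 31.2 and 28.95 TPM in the same order. The lower PC3 sum rested on 1 gene, since without UBE2S the sums were 3609 and 3635 TPM, whereas in 22RV1 they were 4241 and 4055 TPM without it, a wider gap than with it.

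CDC20 was the most abundant mitosis gene in both 22RV1 libraries, at 509 and 491 TPM. UBE2S led in PC3 shCON at 549 TPM, and UBE2C in PC3 shDDX52 at 484 TPM. The scarcest were the kinesins KIF14 and CENPE, of which the lower stood at 1.16 and 1.78 TPM in the control and knockdown cells of 22RV1 and at 1.85 and 1.92 TPM in those of PC3. The order of the 60 levels was kept between conditions, with Spearman's rho across genes of 0.987 in 22RV1 and 0.979 in PC3, and less so between the control cells of the 2 lines (0.880). These correlations are across genes that share each library.

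**Figure D2:**
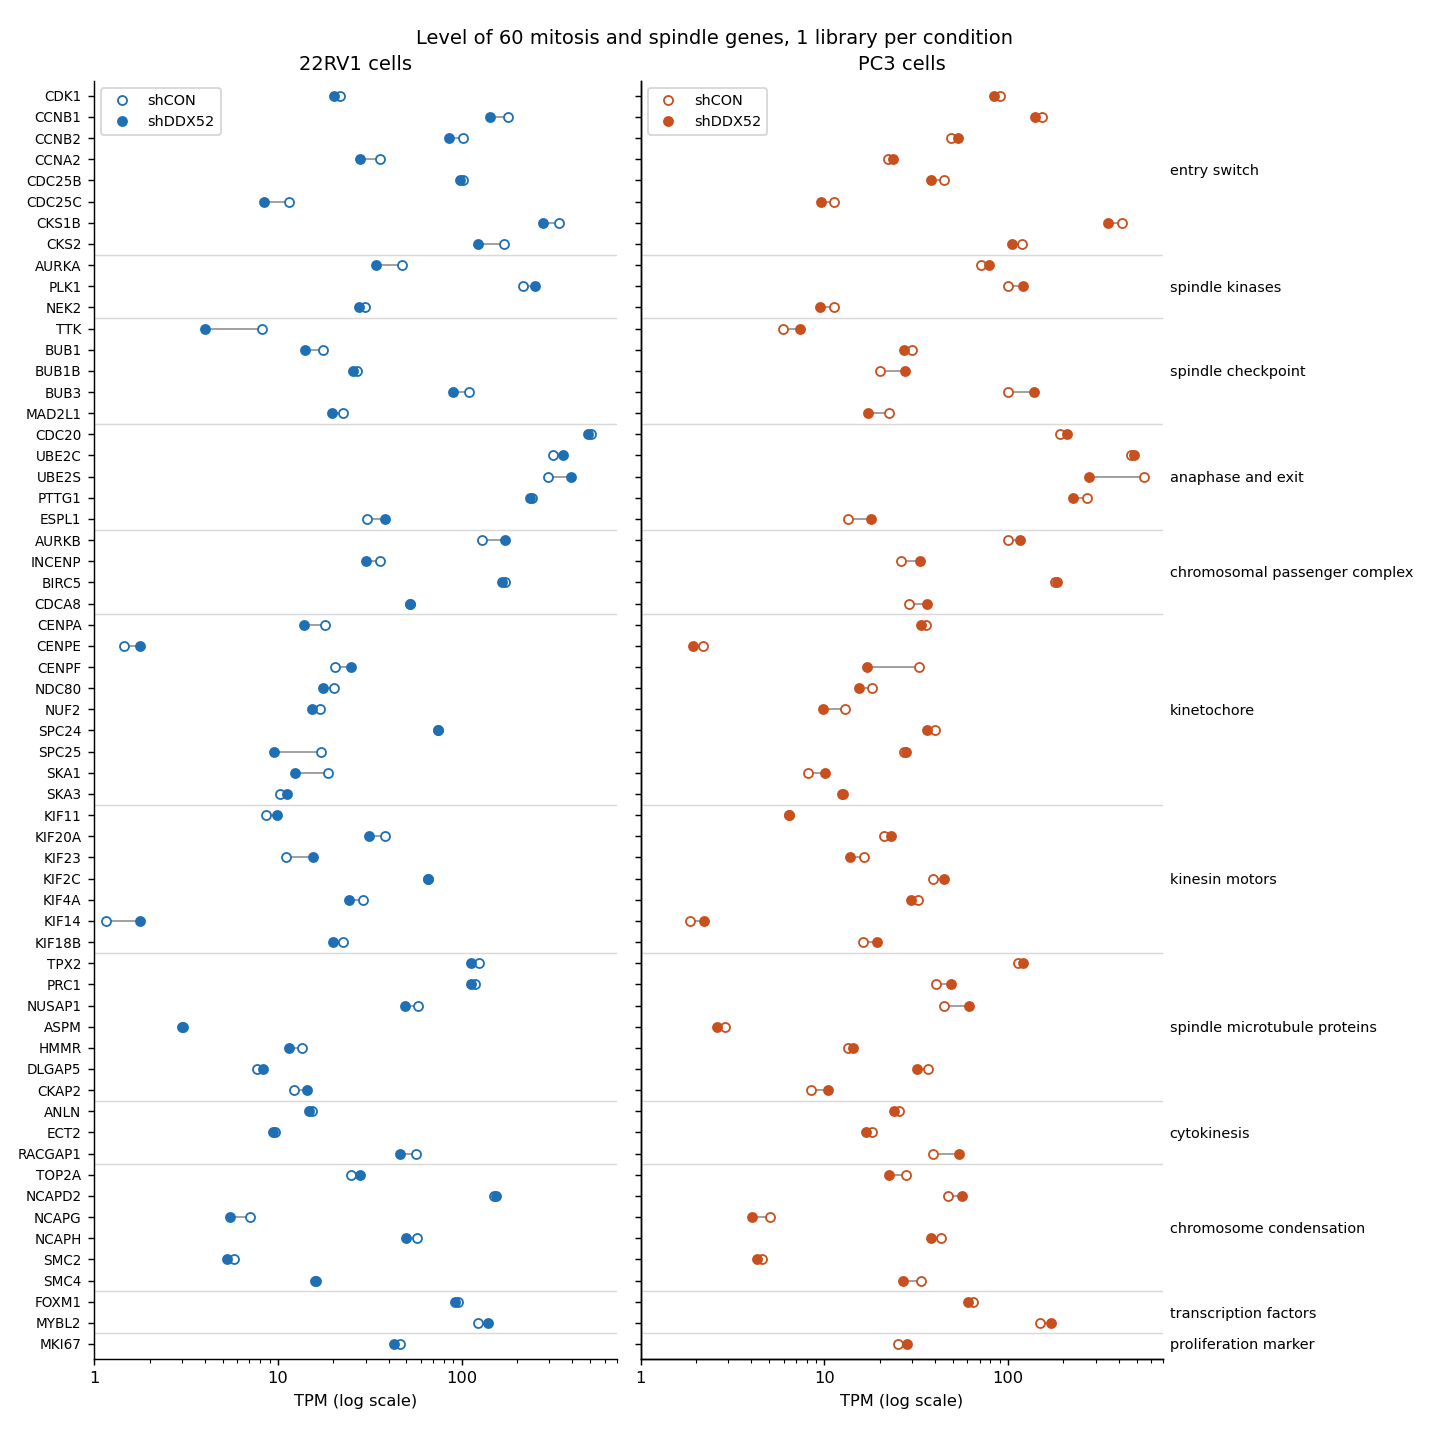
TPM on a log scale for each of the 60 genes, grouped by role, with open circles for shCON and filled circles for shDDX52, 22RV1 on the left and PC3 on the right. Points of the same line lie close together for most genes, while UBE2S, with 549 TPM in PC3 shCON and 274 TPM in PC3 shDDX52, is separated.

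In 22RV1, most mitosis genes were slightly lower after DDX52 knockdown under the deposited scaling, as were most genes. On the log2(TPM + 1) scale, 43 of 60 were lower and 17 higher, with a median log2 ratio of -0.085. Of the 14438 genes that reached 1 TPM in one or both 22RV1 libraries, 58.8% were lower and 40.9% higher, with a median of -0.076. Once all genes were centred on that median, 30 of the 60 were lower and 30 higher, and after the mitochondrially encoded and the 20 highest genes were left out of the total, 31 were lower and 29 higher. A gene was called here when the ratio reached 1.5-fold. In this line, 2 of 60 mitosis genes were lower by that size (3.33%), TTK and SPC25, against 8.47% of all genes. None was higher by 1.5-fold, against 5.61% of all genes, and none reached 2-fold in either direction with the pseudocount of 1, against 2.86% lower and 2.24% higher. With a pseudocount of 0.1, TTK passed 2-fold (-1.01).

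In PC3, the 60 genes were split evenly, with 30 lower and 30 higher and a median of 0.0045, against 53.5% lower and 46.3% higher among all 14262 genes tested. Scaling to nuclear protein-coding genes alone shifted the median of all PC3 genes by 0.12 and moved the split to 21 lower and 39 higher. Under that scaling 35.0% of the mitosis genes were lower, against 40.3% of all genes tested. As in 22RV1, 2 of 60 were lower by 1.5-fold (3.33%), UBE2S and CENPF, against 9.84% of all genes, and none was higher by that size, against 8.95%. None reached 2-fold on the log2(TPM + 1) scale, against 3.44% lower and 2.86% higher. That count rests on the pseudocount, since UBE2S stood at -0.998 with a pseudocount of 1 and at -1.0001 with 0.1. The interquartile range of the log2 ratios was 0.30 in 22RV1 and 0.40 in PC3, against 0.44 and 0.53 for all genes tested. At a filter of 10 TPM it was 0.27 against 0.38 in 22RV1 and 0.43 against 0.45 in PC3. The share of mitosis genes past 1.5-fold stood under that of all genes in both lines, which was not tested. With the filter raised to 10 TPM, 1 of 51 genes (1.96%) was lower in 22RV1, against 5.32% of all genes, and 2 of 53 (3.77%) in PC3, against 7.49%. None was higher under that filter, against 2.69% in 22RV1 and 6.21% in PC3.

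**Figure D3:**
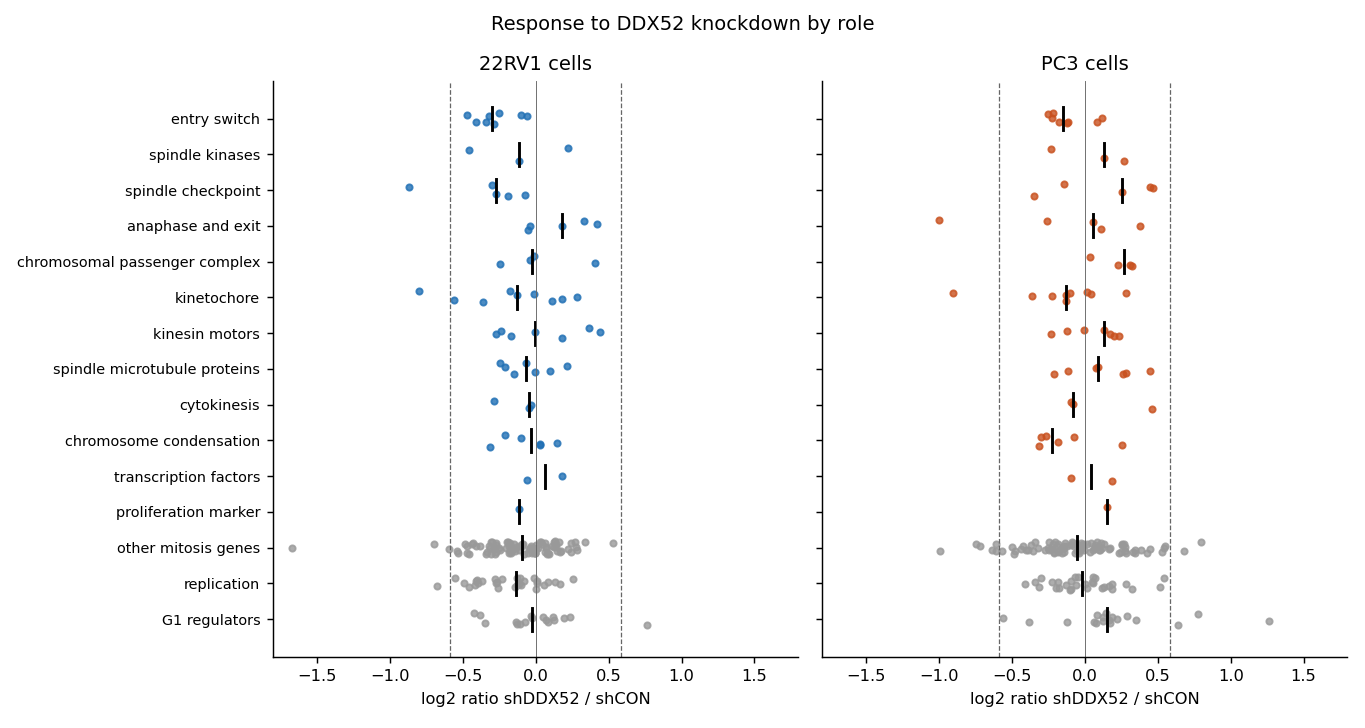
log2 ratio of shDDX52 to shCON, computed from TPM plus 1, for each mitosis gene by role (coloured points), with the other mitosis, replication and G1 lists in grey, bars at the medians and dashed lines at 1.5-fold, in 22RV1 and PC3. The 8 entry-switch genes lie below 0 in 22RV1 (7 of 8 after centring), and the 4 chromosomal passenger genes lie above 0 in PC3. Of all genes tested, 58.8% were lower in 22RV1 and 46.3% higher in PC3.

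Across the lines, the directions of the mitosis genes were mixed, in shares near those of the whole table. Of the 60 genes, 22 were lower in both lines, 9 higher in both and 29 opposite (36.7%, 15.0% and 48.3%), against 32.5%, 18.5% and 48.8% of 12175 genes. None passed 1.5-fold in both lines, against 1.18% of all genes lower and 0.706% higher in both, and none passed it in opposite directions, against 1.95%. Across the 60 genes Spearman's rho between the 2 lines' log2 ratios was -0.06, a value across genes that share libraries.

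**Figure D4:**
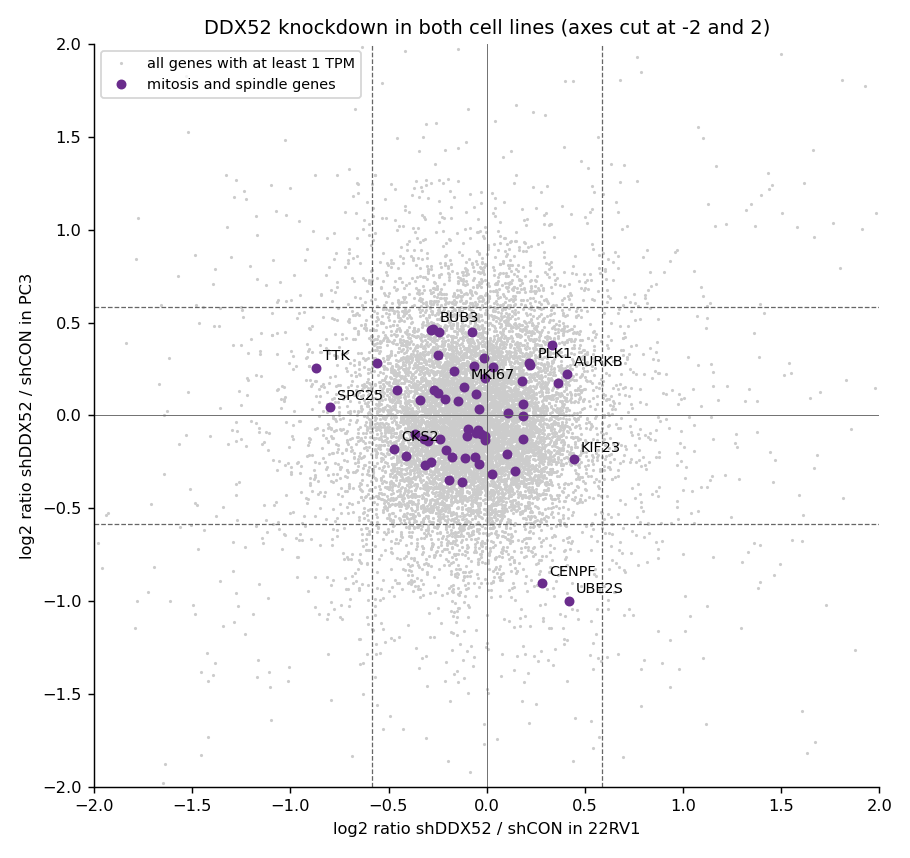
log2 ratio (shDDX52 to shCON, TPM plus 1) in 22RV1 on the x axis and in PC3 on the y axis, with mitosis genes in purple, all other genes tested in grey, dashed lines at 1.5-fold and both axes cut at -2 and 2. TTK and SPC25 lie far left near or above 0 in PC3, and UBE2S and CENPF lie far down with positive values in 22RV1.

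In 22RV1, all 8 genes of the entry switch were lower in shDDX52, against 58.8% of all genes. Their median was -0.30 against -0.076 for all genes, and 7 of 8 remained lower with the table centred on its median. None reached 1.5-fold. CKS2, a small subunit of CDK1 complexes, was at 171 and 123 TPM in 22RV1 shCON and shDDX52 (log2 ratio -0.47), and CDC25B, a phosphatase that activates CDK1, was at 102 and 98.0 TPM (-0.058). CDK1 itself hardly differed, at 21.7 and 20.2 TPM (-0.10). In PC3, 6 of 8 were lower, against 53.5% of all genes. The ratios ran from CKS1B, the other small subunit (418 and 351 TPM, -0.25), to the cyclin CCNB2, which was higher (49.2 and 53.5 TPM, 0.12). Under scaling to nuclear protein-coding genes, 4 of 8 were lower in PC3, against 40.3% of all genes.

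Of the spindle kinases, PLK1, which drives centrosome maturation and mitotic exit, was higher in both lines. It was at 216 and 252 TPM in 22RV1 shCON and shDDX52 (0.22) and at 99.9 and 121 TPM in PC3 (0.27). AURKA, which builds spindle poles, had the lowest ratio in 22RV1, with 47.2 and 34.05 TPM (-0.46), and was at 71.2 and 78.2 TPM in PC3 (0.14). NEK2, which separates centrosomes, had the lowest ratio in PC3, with 11.2 and 9.43 TPM (-0.23).

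All 5 spindle checkpoint genes were lower in 22RV1, against 58.8% of all genes, and 4 of 5 remained so after centring. Their median was -0.27, against -0.076 for all genes. TTK, the kinase that starts the checkpoint signal, was at 8.17 TPM in shCON and 4.02 TPM in shDDX52, 49.2% of the control value (log2 ratio -0.87). BUB1B, an inhibitor of the anaphase-promoting complex, was the least different, at 27.0 and 25.6 TPM (-0.072). In PC3 the set was mixed, with 2 of 5 lower, against 53.5% of all genes. TTK was slightly higher there, at 5.98 and 7.34 TPM (0.26). MAD2L1, which binds CDC20, was the lowest at 22.4 and 17.4 TPM (-0.35), and BUB3, the partner of BUB1 kinases, was the highest at 100.1 and 139 TPM (0.46).

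Among the genes of anaphase and exit, UBE2S was higher in 22RV1 and lower in PC3. This enzyme, which extends ubiquitin chains on substrates of the anaphase-promoting complex, was at 296 and 396 TPM in 22RV1 shCON and shDDX52 (0.42) and at 549 and 274 TPM in PC3 (-0.998), 50% of the control value. Its named copies in the tables summed to at most 1% of it in every library, as did those of the other 19 genes with named copies. UBE2C, which starts those chains, was at 314 and 356 TPM in 22RV1 and 464 and 484 TPM in PC3. ESPL1, the separase that cuts cohesin, was the highest in PC3, at 13.5 and 17.9 TPM (0.38), and was also higher in 22RV1, at 30.4 and 38.5 TPM (0.33). CDC20, which activates the complex, was the lowest in 22RV1, at a ratio of -0.053. Of the 5 genes, 2 were lower in 22RV1 (median 0.18), against 58.8% of all genes, or 0 of 5 after centring (0.26). In PC3, 2 of 5 were lower (median 0.059), against 53.5%.

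The chromosomal passenger complex, the AURKB kinase with INCENP, survivin (BIRC5) and borealin (CDCA8), corrects faulty attachments. In PC3 all 4 genes were higher, against 46.3% of all genes, and all 4 were so under each scaling used. Their median was 0.27, against -0.036 for all genes. In 22RV1, 3 of the same 4 were lower (median -0.027), against 58.8% of all genes, or 1 of 4 after centring. The set is small, and the difference was not tested. The range ran from BIRC5, at 181 and 185 TPM (0.034), to INCENP, at 26.1 and 32.9 TPM (0.32). In 22RV1, INCENP was the lowest at 35.8 and 30.03 TPM (-0.25), and AURKB the highest at 129 and 172 TPM (0.41). With shCON and shDDX52, AURKB took 33.2% and 40.8% of the complex's summed TPM in 22RV1 and 29.7% and 31.5% in PC3.

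Kinetochore genes held 1 of the called genes in each line. SPC25, a subunit of the NDC80 complex that binds microtubules, was at 17.3 and 9.49 TPM in 22RV1 (-0.80) and at 27.1 and 28.0 TPM in PC3 (0.04). Its partners differed by less in 22RV1: SPC24 was at 74.5 and 74.0 TPM (-0.0098), NDC80 at 20.1 and 17.7 TPM (-0.18) and NUF2 at 16.9 and 15.4 TPM (-0.12). SPC25 thus went from 13.4% to 8.14% of the complex's summed TPM in 22RV1 and from 27.6% to 31.2% in PC3. CENPF, a large protein of the outer kinetochore and nuclear envelope, was at 32.9 and 17.1 TPM in PC3 (-0.90), 52.0% of the control, and at 20.4 and 25.02 TPM in 22RV1 (0.28). SKA1, which tracks microtubule ends, was at 18.7 and 12.4 TPM in 22RV1, just short of 1.5-fold on the log2(TPM + 1) scale (-0.56), and at 8.15 and 10.1 TPM in PC3 (0.28).

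The kinesin motors were mixed. In 22RV1, 4 of 7 were lower, against 58.8% of all genes (median -0.0069, positive under each other scaling). In PC3, 3 of 7 were lower, against 53.5% (median 0.14). KIF23, a motor of the central spindle, was the highest in 22RV1, at 11.1 and 15.5 TPM (0.44), and the lowest in PC3, at 16.4 and 13.8 TPM (-0.24). KIF20A, needed for cytokinesis, was the lowest in 22RV1, at 38.1 and 31.5 TPM (-0.27). KIF18B, which shortens astral microtubules, was the highest in PC3, at 16.3 and 19.4 TPM (0.24).

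The spindle microtubule proteins TPX2, PRC1, NUSAP1, ASPM, HMMR, DLGAP5 and CKAP2 gave 5 of 7 lower in 22RV1, against 58.8% of all genes, or 3 of 7 after centring. In PC3, 2 of 7 were lower, against 53.5%. NUSAP1, a microtubule-bundling protein, was the lowest in 22RV1, at 58.3 and 49.1 TPM (-0.24), and the highest in PC3, at 44.9 and 61.6 TPM (0.45). CKAP2, a microtubule-stabilising protein, was the highest in 22RV1, at 12.2 and 14.3 TPM (0.22). DLGAP5, which strengthens kinetochore fibres, was the lowest in PC3, at 36.8 and 31.7 TPM (-0.21).

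All 3 cytokinesis genes were lower in 22RV1, against 58.8% of all genes, or 1 of 3 after centring. In PC3, 2 of 3 were lower, against 53.5%, or 0 of 3 under scaling to nuclear protein-coding genes, against 40.3%. RACGAP1, the partner of KIF23 in centralspindlin, was at 56.3 and 46.05 TPM in 22RV1 (-0.28) and at 38.8 and 53.9 TPM in PC3 (0.46), next to BUB3 the highest ratio of the 60 genes in PC3. ECT2, an activator of the contractile ring, was nearly level, at 9.62 and 9.40 TPM in 22RV1 and at 18.1 and 16.8 TPM in PC3. With shCON and shDDX52, KIF23 made up 16.5% and 25.1% of the summed TPM of centralspindlin in 22RV1, and 29.7% and 20.4% in PC3.

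For chromosome condensation, 5 of 6 genes were lower in PC3, against 53.5% of all genes. Under scaling to nuclear protein-coding genes it was 4 of 6, against 40.3%. In 22RV1, 3 of 6 were lower, against 58.8%. NCAPG, a condensin I subunit, was the lowest in 22RV1, at 7.04 and 5.46 TPM (-0.32), and TOP2A, which untangles DNA, the highest at 25.1 and 27.8 TPM (0.14). SMC4, a condensin ATPase, was the lowest in PC3, at 33.6 and 26.8 TPM (-0.32), and NCAPD2 the highest, at 46.9 and 56.3 TPM (0.26).

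The values of the transcription factors and of MKI67 lay close together in each line. FOXM1 was at 96.0 and 92.3 TPM in 22RV1 (-0.056) and at 64.7 and 60.5 TPM in PC3 (-0.095). MYBL2 was at 122 and 139 TPM in 22RV1 (0.18) and at 149.8 and 170.4 TPM in PC3 (0.18). MKI67, the gene behind the Ki-67 stain, was at 46.4 and 42.7 TPM in 22RV1 (-0.12) and at 25.2 and 28.2 TPM in PC3 (0.15). The motif splits cover only the 52 genes with a promoter window. Their median log2 ratio was -0.068 in 22RV1 and -0.088 in PC3, against -0.085 and 0.0045 for all 60 genes. For genes with the homology region near the start, the median log2 ratio was -0.12 in 22RV1 (38 genes) against 0.088 without it (14 genes), while in PC3 it was -0.075 against -0.13. Over the whole window, it was -0.085 (44 genes) against 0.085 (8 genes) in 22RV1 and -0.088 against -0.025 in PC3, so the order in PC3 turned with the window. The other motifs were split in the same way over the whole window. With and without E2F motifs (16 and 36 genes), medians were -0.18 and -0.044 in 22RV1 and -0.12 and 0.048 in PC3. With and without an E-box (6 and 46 genes), they were 0.18 and -0.098, and -0.10 and -0.085. For the CCAAT box (39 and 13 genes), they were -0.099 and -0.047, and -0.099 and -0.072.

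Between the control cells of the 2 lines, which were quantified in separate tables, single mitosis genes differed by more than after knockdown. Of the 60, 15 were higher by 1.5-fold in 22RV1 (25%, against 32.2% of 15727 genes) and 10 lower (16.7%, against 29.3%). Past 2-fold, 9 were higher in 22RV1, against 21.3% of all genes, and 3 lower, against 19.9%. NCAPD2 was the farthest upward, at 151 TPM in 22RV1 and 46.9 TPM in PC3, followed by PRC1 at 118 and 40.4 TPM and by CDC20 at 509 and 193 TPM. The others were CCNB2, CDC25B, PLK1, NEK2, ESPL1 and SKA1.

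In the opposite direction, DLGAP5 was at 7.68 TPM in 22RV1 and 36.8 TPM in PC3, CDK1 at 21.7 and 90.4 TPM and SMC4 at 15.9 and 33.6 TPM. CDK1 took 7.17% of the summed TPM of CDK1, CCNB1 and CCNB2 in 22RV1 shCON and 31.0% in PC3 shCON. NCAPD2 took 63.7% of condensin I TPM in 22RV1 shCON and 35.2% in PC3 shCON.

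**Figure D5:**
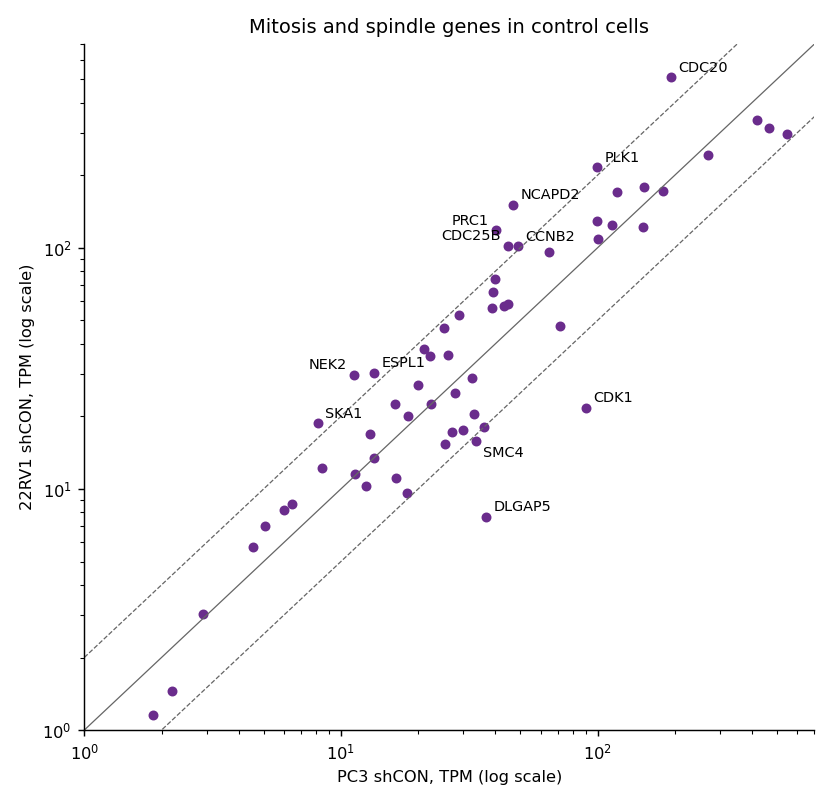
TPM of the 60 mitosis genes in PC3 shCON (x axis, log scale) and 22RV1 shCON (y axis, log scale). The solid line marks equal TPM and the dashed lines a 2-fold difference, beyond which 9 genes lie toward 22RV1 and 3 toward PC3 (CDK1, DLGAP5 and SMC4).

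The rest of the mitotic machinery, from lists of 91 other genes, was counted in the same way. In 22RV1, 3 of 89 genes tested were lower by 1.5-fold and 0 higher, against 8.47% and 5.61% of all genes, with a median of -0.097. In PC3, 6 of 90 were lower and 2 higher, against 9.84% and 8.95%, with a median of -0.054. The only one of these genes past 2-fold on the log2(TPM + 1) scale was CENPP, an inner kinetochore protein, at 5.07 and 0.91 TPM in 22RV1 (-1.67). Of 30 DNA replication genes, 1 was lower by 1.5-fold in 22RV1 and 0 in PC3, against the same 8.47% and 9.84%, and their medians were -0.14 and -0.020. Of the regulators of G1 phase, CDKN1A, the CDK inhibitor p21, was at 109 and 186 TPM in 22RV1 (0.76) and at 31.2 and 76.3 TPM in PC3 (1.26). It was the one gene of that list past 2-fold, in PC3 only, where 2.86% of all genes were higher by that size. The list as a whole, CDKN1A included, was not level in PC3: 15 of 18 genes tested were higher, against 46.3% of all genes. By 1.5-fold, 3 of 18 were higher there, CDKN1A among them, against 8.95%. In 22RV1, 1 of 17 was higher by that size, CDKN1A itself, against 5.61%.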

How the data were processed

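RNA of 22RV1 and PC3 cells with shCON or shDDX52 was sequenced in 4 libraries, 1 per condition, and the authors deposited a TPM value per gene. The submitters' processing notes name CASAVA, HISAT2 and build hg19. The quantification program and gene annotation are not given in the sources used here. TPM keeps no depth, so neither a count test nor an interval could be made. The members and lists were chosen with earlier results of these data known. Gene identifiers were matched to symbols and to GENCODE 29 by identifier alone. Promoters came from RefSeq (GRCh38.p14) by symbol, so no coordinate of the tables was used. No column was left without a sample.

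The log2 ratio was log2((TPM of shDDX52 + 1)/(TPM of shCON + 1)) over genes that reached 1 TPM in one or both libraries of a line. Calls were made at 1.5-fold. No test was run. Both values were printed for MKI67, FOXM1, MYBL2, for genes past 1.5-fold and for the lowest and highest of each role of at least 3 genes; values of CDK1, UBE2C, SPC24, NDC80, NUF2, the second line of a named gene, and the control-cell comparison were added after they were seen. Other list genes were named only past 2-fold with at least 5 TPM. Alternatives were a pseudocount of 0.1, a filter of 10 TPM, a 2-fold call, 3 scalings and the window near the start. The planned protein motifs were not run, since protein sequences were not used here. The ratio was tried on simulated data with 3-fold changes planted in genes of at least 10 TPM. That simulation did not cover changes of 1.5-fold, changes in genes under 10 TPM or a spread between replicates. Python 3.11.15, numpy 2.4.6, pandas 2.3.3, scipy 1.17.1 and matplotlib 3.10.9 were used.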

Additional observations from a re-analysis of the deposited data

Results flagged for a closer look

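In 4 mitosis genes called in one line, the log2 ratio of shDDX52 to shCON stood apart between the lines. The difference was not tested, since each condition had 1 library. TTK was at -0.87 in 22RV1 and 0.26 in PC3. UBE2S was at 0.42 in 22RV1 and -0.998 in PC3. CENPF was at 0.28 in 22RV1 and -0.90 in PC3. SPC25 was at -0.80 in 22RV1 and 0.0425 in PC3.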

How the results depend on the processing

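Of 168 alternative values for 31 results, 150 stayed in direction and within the limits set (1.5 times for a count). That number is not a measure of stability, since part of the 150 could not change. All 60 genes reached 1 TPM in both lines, so dropping the filter left their values as they were. A filter likewise cannot alter the ratio of a single gene. The limit for counts was also wide: 43 genes lower in 22RV1 became 30 of 60 after centring and still fell within it. The counts of mitosis genes lower by 1.5-fold were 2 in each line. In 22RV1 the count was 1 at a 10 TPM filter and 0 at a 2-fold call, and in PC3 it was 0 at a 2-fold call, as both choices pass fewer genes by construction. Scaling to nuclear protein-coding genes moved all PC3 genes by 0.12 on the log2 scale: there the median of the mitosis genes was 0.12, 2 were higher by 1.5-fold, the median of the other mitosis genes changed sign to 0.057, and 12 genes rather than 22 were lower in both lines. Genes higher in both lines numbered 15 once the mitochondrially encoded and the 20 highest genes were left out and 16 after centring, rather than 9. Within 60 bases before to 40 after the start, a shorter window by construction, the CCAAT share was 51.9%, against 15.2% of all genes. The E-box share there was 0.0%, against 3.86%, and the E2F share 15.4%, against 5.95%. With a pseudocount of 0.1, TTK in 22RV1 was at -1.01 and UBE2S in PC3 at -1.0001, both past 2-fold. No paired analysis was possible because replicate 1 is the sole replicate of each group. Without replicates and depth, no difference could be set against a spread.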

Other observations

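Among the lists of other mitotic genes, the inner kinetochore had 13 of 14 genes lower in 22RV1 (median -0.15) and 8 of 14 in PC3 (-0.10), against 58.8% and 53.5% of all genes (medians -0.076 and -0.036). After centring on the median of all genes, 10 of 14 and 7 of 14 were lower. The MuvB and DREAM genes, which hold cell cycle promoters silent or active, had 7 of 9 lower in 22RV1 (median -0.30) and 4 of 9 in PC3 (0.069), or 7 of 9 and 3 of 9 after centring. KNTC1, a checkpoint protein of the outer kinetochore singled out after its values were seen, was the only one of 88 such genes lower by 1.5-fold in both lines, at 9.59 and 5.54 TPM in 22RV1 and at 8.11 and 3.59 TPM in PC3. In PC3 it stood at 44.3% of the control value, just short of 2-fold on the log2(TPM + 1) scale (-0.989). Of all genes, 1.18% were lower by that size in both lines, a share close to 1 of 88. In the control cells, 19 of 30 DNA replication genes were higher by 1.5-fold in 22RV1 than in PC3 (63.3%, against 32.2% of all genes), with a median log2 ratio of 0.95. Across protein-coding genes, the log2 ratio followed GC content in 22RV1 (Spearman's rho 0.35 over 11870 genes) and transcript length in PC3 (0.28 over 11860 genes), while over the 60 mitosis genes the same values were 0.06 and 0.11. For the other pairings the mitosis genes had the larger values. Transcript length in 22RV1 gave 0.27 over the 60 genes and -0.06 over protein-coding genes. GC content in PC3 gave 0.29 and -0.03. These are correlations across genes computed after the data were seen and described without a test.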
